A study of Mus musculus with 6 samples.

Results

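The genes described here make, move and sense GABA (gamma-aminobutyric acid), the main inhibitory transmitter of the brain, in the suprachiasmatic nucleus (SCN), the hypothalamic seat of the circadian clock. The set holds 28 named genes out of 17645 listed in the deposited tables. They were taken by gene symbol and not by a cut on their values, but the list was chosen with earlier results of these data known. They comprise 4 genes of GABA synthesis and breakdown, 3 transporters, 12 subunits of GABA-A receptors, 2 subunits of GABA-B receptors, 4 chloride cotransporters and 3 genes of the postsynaptic scaffold. All 28 were listed in at least 1 library, and 27 passed the filter on low counts and were tested. Gabra6 did not pass.

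RNA was sequenced from 3 libraries titled r1r2V (replicates 1, 4 and 5) and 3 titled V (replicates 2, 3 and 4). The mice were female C57BL/6 animals killed in darkness between zeitgeber time 12 and 14, counted in hours after lights on, and each library pooled RNA of 2 SCN punched from frozen sections. The series title names a knockout of the REV-ERB genes Nr1d1 and Nr1d2 in GABAergic neurons. On that basis r1r2V was taken as the knockout and V as its control. The labels give no age and no substrain, name no Cre driver and do not spell out V, so an allele that both groups carry cannot be told from them. They also do not say that pools came from separate animals, so the p-values reflect only how these samples vary, which may be technical. Nr1d1 was higher in r1r2V, with 73.8, 57.9 and 54.4 FPKM, than in V, with 21.1, 23.4 and 21.3 FPKM, and Nr1d2 had 51.1, 59.9 and 48.4 FPKM in r1r2V and 38.8, 39.7 and 37.0 FPKM in V. These totals over all exons do not show a deletion, so every direction below rests on the titles.

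GABA is made from glutamate by the decarboxylases GAD67 and GAD65, loaded into vesicles by the transporter VGAT and cleared by plasma membrane transporters. It opens GABA-A receptors, chloride channels built of subunits from several classes, and activates GABA-B receptors, which act through G proteins. Whether an open GABA-A channel inhibits or excites depends on the chloride gradient, set by importers such as NKCC1 and exporters such as KCC2. Nearly all SCN neurons are GABAergic, and both inhibitory and excitatory responses to GABA have been described there.

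None of the 27 tested genes passed the test for a difference between r1r2V and V. By the quasi-likelihood test of edgeR, with p-values adjusted over 14438 genes by the Benjamini-Hochberg method, 0 rose and 0 fell at an adjusted p under 0.05, against 0.416% of all genes tested. DESeq2 and limma-voom also called 0. At an unadjusted p under 0.05 there were 3 (11.1%), namely Slc32a1, Slc6a13 and Gabra2, against 7.58% of all genes tested. Over all genes tested, 0.298% were called higher and 0.118% lower in r1r2V. The median log2 fold change (r1r2V minus V) was -0.01 over the 27 genes, with 12 positive and 15 negative, and 0.00892 over all genes tested. For 24 of the 27 the 95% interval of the fold change lay within a 1.5-fold change in either direction. The exceptions were Slc6a13, Gabra2 and Gabrd. In punched tissue, fewer cells of a type and less RNA per cell cannot be told apart.

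**Figure D1:**
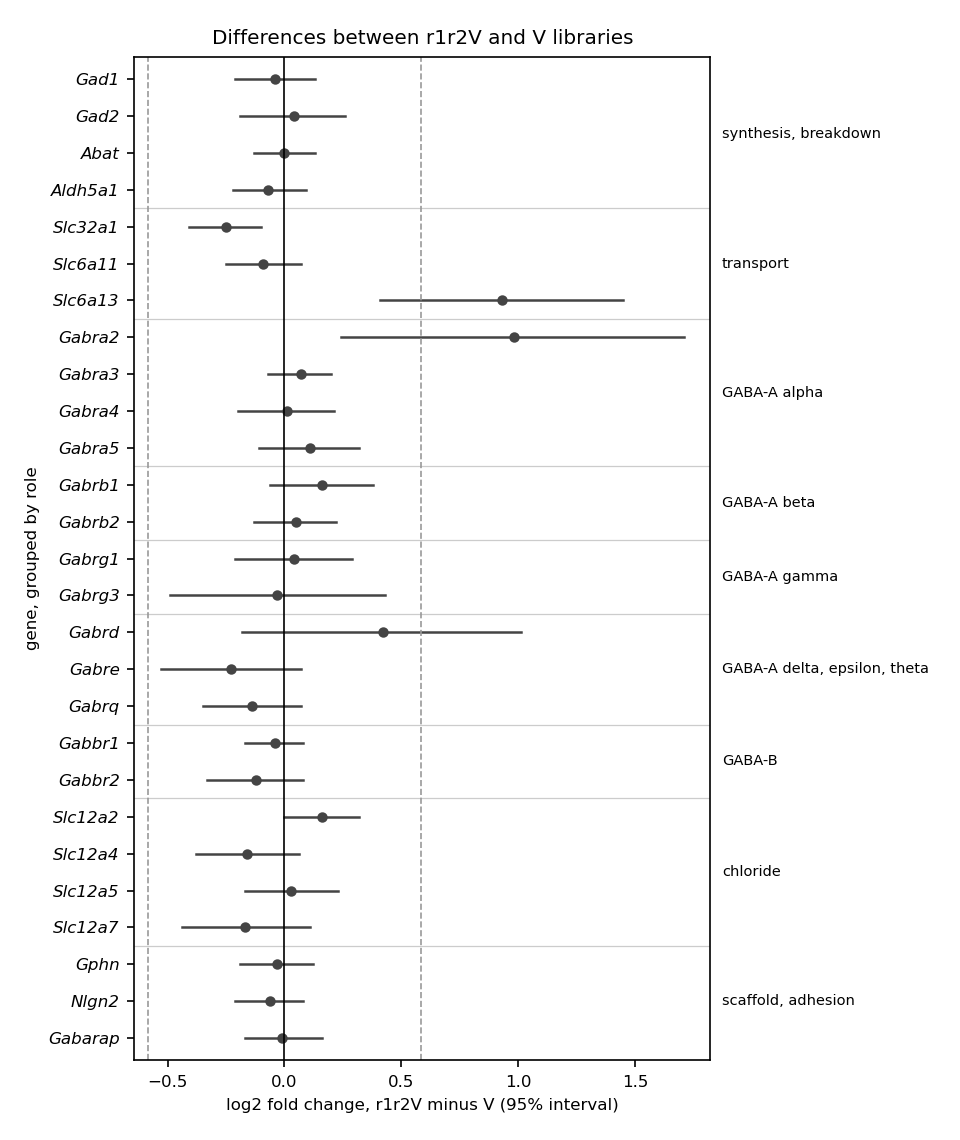
Log2 fold change (r1r2V minus V) of the 27 tested genes with its 95% interval, from edgeR's quasi-likelihood fit; dashed lines mark a 1.5-fold change. Gabra2 (0.98) and Slc6a13 (0.93) lie farthest to the right with wide intervals, Slc32a1 (-0.25) lies to the left of 0, and 24 intervals stay between the dashed lines.

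The r1r2V and V libraries did not overlap for 4 of the 27 genes (14.8%), against 14.5% of all genes tested, so the share is near the background. These were Slc32a1, lower in r1r2V, and Slc6a13, Gabra2 and Slc12a2, higher in r1r2V. Their values are given in turn below with the promoters of 3 of them, which are printed because REV-ERB proteins repress genes by binding DNA and these 3 had the smallest p-values of the set.

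The promoters are from RefSeq (GRCm38.p6, windows of 300 bases around a listed start, 5′ to 3′ along the gene's strand), and capitals mark any match to AGGTCA, the core that REV-ERB and ROR proteins bind, on either strand. Slc32a1 is shown at chr2:158610508-158610807 (plus strand), Gabra2 at chr5:71095800-71096099 (minus strand) and Slc6a13 at chr6:121303389-121303688 (plus strand), the last being the only one of its listed starts with a match.
Slc32a1: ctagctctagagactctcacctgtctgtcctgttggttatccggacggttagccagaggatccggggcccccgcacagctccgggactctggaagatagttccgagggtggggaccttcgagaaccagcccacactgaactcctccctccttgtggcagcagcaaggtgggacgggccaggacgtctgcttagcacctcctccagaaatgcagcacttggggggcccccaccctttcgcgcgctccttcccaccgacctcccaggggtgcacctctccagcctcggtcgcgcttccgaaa
Gabra2: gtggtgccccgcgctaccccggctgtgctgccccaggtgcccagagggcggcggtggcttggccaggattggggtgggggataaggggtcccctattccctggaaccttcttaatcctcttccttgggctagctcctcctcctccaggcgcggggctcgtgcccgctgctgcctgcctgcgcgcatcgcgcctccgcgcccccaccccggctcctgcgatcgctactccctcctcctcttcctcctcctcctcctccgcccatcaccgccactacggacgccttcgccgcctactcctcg
Slc6a13: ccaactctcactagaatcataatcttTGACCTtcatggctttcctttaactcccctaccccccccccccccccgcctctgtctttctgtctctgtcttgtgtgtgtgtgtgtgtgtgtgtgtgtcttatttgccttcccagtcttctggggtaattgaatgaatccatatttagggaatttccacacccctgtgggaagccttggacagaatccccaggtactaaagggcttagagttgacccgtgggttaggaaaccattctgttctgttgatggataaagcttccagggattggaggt
The Slc6a13 match is written on the opposite strand, and the Slc32a1 and Gabra2 windows hold none. The Slc6a13 windows not shown begin at 121300038, which covers the start of the gene at 121300288, and at 121300490, and neither holds a match. RefSeq promoters were found for 25 of the 28 genes, 33 windows in all. AGGTCA on either strand was in 4 of the 33 (12.1%), belonging to Slc6a11, Slc6a13 and Slc12a7, and in 16.3% of all 32851 promoters of that length. The longer form TAGGTCA, which contains the first motif, was in 0 of the 33 and in 2.6% of all promoters. The E-box CACGTG, which the BMAL1 and CLOCK activators bind, was in 3 windows (9.1%), of Slc12a5 and Slc12a7, against 7.2% of all promoters. The Slc12a7 windows, which start at 73763410 and 73763447, overlap and each hold AGGTCA and CACGTG, so a site may be counted more than once. By gene, AGGTCA was in 3 and CACGTG in 2 of the 25. The cyclic AMP response element TGACGTCA was in 0 windows, against 1.8%. These are matches of letters and say nothing about binding.

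Genes of GABA synthesis were abundant, and their group means lay close together. Levels are given as FPKM, fragments scaled to transcript length and sequencing depth, which allows genes to be compared per length. Gad1, which encodes GAD67, had 145, 159 and 130 FPKM in r1r2V replicates 1, 4 and 5 and 155, 148 and 144 FPKM in V replicates 2, 3 and 4 (log2 fold change -0.04, 95% interval -0.21 to 0.13). Gad2, which encodes GAD65, had 113, 130 and 99.1 FPKM in r1r2V and 122, 111 and 103 FPKM in V (log2 fold change 0.04, interval -0.19 to 0.26). In both genes the highest and the lowest of the 6 libraries were r1r2V libraries, replicates 4 and 5, with the V libraries between them. The ratio of Gad1 to Gad2 FPKM was above 1 in every library, at 1.28, 1.22 and 1.31 in r1r2V and 1.28, 1.33 and 1.40 in V, and the difference did not pass (log2 difference -0.07, two-sided exact permutation p = 0.3, where 3 against 3 cannot go below 0.1). Both genes lie on chromosome 2, Gad1 at 70561303 to 70602014 and Gad2 at 22621015 to 22693877, both on the plus strand (GRCm38).

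The same held for GABA breakdown. Abat, which encodes GABA transaminase, the mitochondrial enzyme that degrades GABA, had 122, 128 and 132 FPKM in r1r2V and 127, 129 and 130 FPKM in V, a range of V values narrower than that of r1r2V. Its 95% interval, -0.13 to 0.13 on the log2 scale, was among the narrowest of the set. Aldh5a1, which encodes succinic semialdehyde dehydrogenase, the next enzyme of that route, averaged 28.7 ± 1.98 FPKM in r1r2V and 30.2 ± 0.929 FPKM in V (SD, n = 3 each; log2 fold change -0.07). By mean FPKM in V, Gad1 ranked 559, Abat 637, Gad2 750 and Aldh5a1 2954 among the 17645 listed genes.

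**Figure D2:**
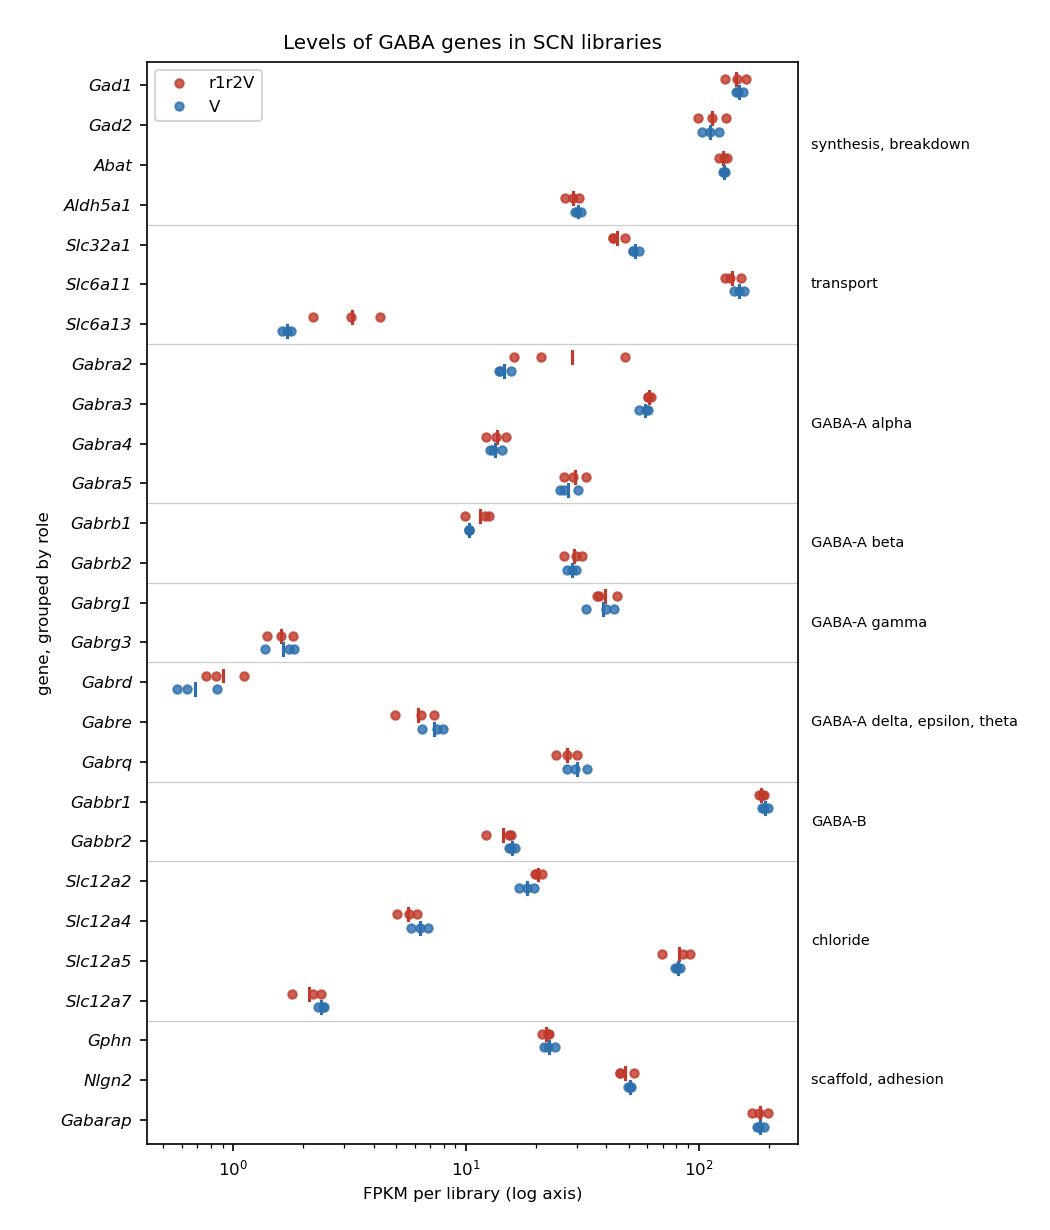
FPKM of the 27 tested genes in each library on a log axis, with r1r2V libraries (red) above V libraries (blue) for each gene; short bars are group means. Gabbr1 has the highest group means (185 FPKM in r1r2V and 192 FPKM in V) and Gabrd the lowest (0.903 FPKM in r1r2V and 0.683 FPKM in V), and the r1r2V points of Gabra2 and Slc6a13 spread to the right of the V points.

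Slc32a1, which encodes VGAT and marks GABA and glycine neurons, was lower in every r1r2V library than in every V library. It had 48.1, 42.6 and 42.7 FPKM in r1r2V and 55.1, 52.3 and 52.3 FPKM in V. The mean was 44.5 ± 3.18 FPKM in r1r2V and 53.2 ± 1.63 FPKM in V (SD, n = 3 each), and the log2 fold change was -0.25 (standard error 0.0677, 95% interval -0.41 to -0.10). The unadjusted p was 0.00371 and the adjusted p 0.314 (edgeR's quasi-likelihood test), so Slc32a1 did not pass, and in the alternatives the adjusted p lay between 0.129 and 0.931. The summed FPKM of 8 pan-neuronal markers ran from 2520 to 2760 in r1r2V and from 2680 to 2780 in V, with 1 of the 8 lower in every r1r2V library than in every V library and 0 higher. Of 10 SCN neuron markers, 8 had a negative log2 fold change, with a median of -0.20, 4 of the 10 had an unadjusted p under 0.05, and none passed after adjustment by edgeR's quasi-likelihood test. By FPKM, every r1r2V library was lower than every V library in 2 of them, Lhx1 and Vipr2, and higher in 1, Rgs16. The Vipr2 ranges nearly touched, with 3.77 FPKM in r1r2V replicate 4 and 3.79 FPKM in V replicate 4. The part of either marker list in the Slc32a1 difference was not tested. The gene lies on chromosome 2 from 158607260 to 158615747 and shares 697 exonic bases with the antisense transcript Gm14205, which the tables do not list. Whether counting used strand was not given in the sources used here. Without strand, reads of both could not be told apart.

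The GABA transporters of the cell surface differed widely in level. Slc6a11, which encodes GAT3, the transporter of astrocytes, had 137, 130 and 152 FPKM in r1r2V and 141, 149 and 156 FPKM in V (log2 fold change -0.09, interval -0.25 to 0.07). Summed FPKM of 8 astrocyte markers was 628, 695 and 730 in r1r2V and 655, 662 and 685 in V. In all 6 libraries Slc6a11 was far above Slc6a13.

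Slc6a13 encodes GAT2, a GABA and taurine transporter known from the meninges and from liver and kidney. It had 2.2, 3.19 and 4.26 FPKM in r1r2V, from 77, 115 and 151 counts, and 1.62, 1.77 and 1.70 FPKM in V, from 59, 64 and 55 counts. All 3 r1r2V libraries lay above the V libraries, which were close together. The fold change was 1.90 (log2 fold change 0.93, interval 0.41 to 1.45, unadjusted p = 0.00269, adjusted p = 0.257 by edgeR's quasi-likelihood test), so it did not pass. Without r1r2V replicate 1 it did (log2 fold change 1.15, adjusted p = 0.0436), and in the alternatives the adjusted p lay between 0.0436 and 0.88. The ratio of Slc6a11 to Slc6a13 FPKM was 35.6 to 62.1 in r1r2V and 84.4 to 92.0 in V.

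Markers of meningeal fibroblasts moved with Slc6a13 in replicate 5. The summed FPKM of 9 such markers was 35.3, 36.7 and 76.1 in r1r2V and 39.6, 49.3 and 34.8 in V, and 8 of the 9 were highest in r1r2V replicate 5. None was at 0 in any library, and Aldh1a2 alone of the 9 was higher in every r1r2V library than in every V library, with 3.09, 3.89 and 5.95 FPKM in r1r2V and 1.77, 2.93 and 1.93 FPKM in V. Of the 9, 8 had a positive log2 fold change, with a median of 0.42, and none passed by edgeR's quasi-likelihood test. In r1r2V replicates 1 and 4 the summed fibroblast level lay within the V range while Slc6a13 was above it. Igf2 was the largest term of that sum in every library. In replicate 4 the markers Dcn, Lum, Col3a1 and Aldh1a2 were above every V library, whereas Igf2, Slc22a8 and Col1a1 were below every V library. The sum thus does not stand for each marker. Without replicate 5 the log2 fold change of Slc6a13 was 0.67 (adjusted p = 0.312). The part of meningeal tissue in the difference was not tested.

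**Figure D3:**
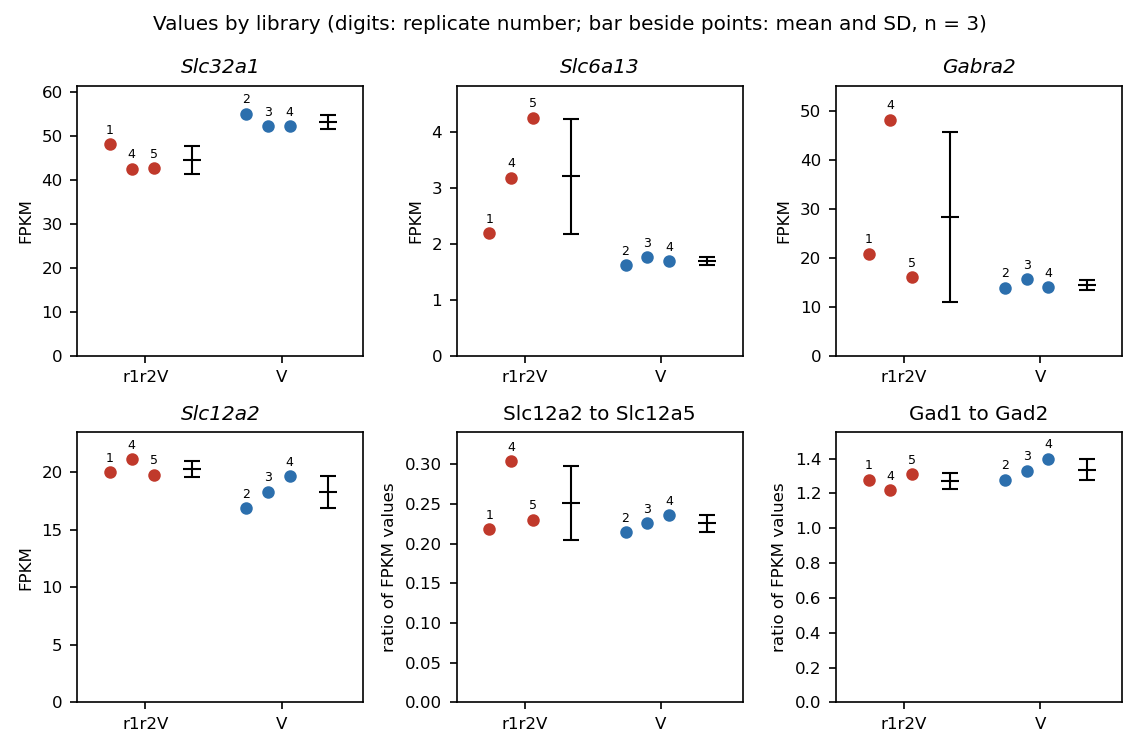
FPKM of the 4 genes whose groups do not overlap, and 2 ratios of FPKM values, by library with axes from 0; digits give the replicate number and the bar beside each group its mean and SD (n = 3). Slc32a1 is lower in all r1r2V libraries (42.6 to 48.1) than in all V libraries (52.3 to 55.1), and r1r2V replicate 4 stands apart in Gabra2 (48.2) and in the ratio of Slc12a2 to Slc12a5 (0.304).

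Among the GABA-A receptor subunits, alpha subunits set much of the receptor's pharmacology. Gabra3, of the alpha-3 subunit, had the highest FPKM of the 12 subunit genes in every library, with 62.4, 60.2 and 60.6 FPKM in r1r2V and 60.7, 59.6 and 55.5 FPKM in V (log2 fold change 0.07, interval -0.07 to 0.20). Of the summed FPKM of these 12 genes it made up 24.8 ± 2.88% in r1r2V and 25.4 ± 0.624% in V (SD, n = 3 each). Subunit genes outside these 12 are not in the sum, so the shares are of these genes and not of all receptors.

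The V libraries gave the order of subunit levels. After Gabra3 (58.6 FPKM on average) came Gabrg1 (38.7), Gabrq (29.9), Gabrb2 (28.4) and Gabra5 (27.3), whose neighbours in this order overlapped in range. A step followed to Gabra2 (14.5) and Gabra4 (13.3), whose ranges overlapped each other and not that of Gabra5, then to Gabrb1 (10.3) and Gabre (7.28). Gabrg3 (1.64 FPKM), Gabrd (0.683 FPKM) and Gabra6 came last. The V range of Gabrg1, of the gamma-1 subunit, which is sparse in much of the brain, lay above those of Gabra5, Gabra2 and Gabra4, and that of Gabrq lay above those of Gabra2 and Gabra4 but overlapped that of Gabra5.

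Gabra5, of the alpha-5 subunit, which is often outside synapses, had 26.4, 32.6 and 28.7 FPKM in r1r2V and 26.4, 30.3 and 25.2 FPKM in V (log2 fold change 0.11). Gabra4, of the alpha-4 subunit, had 12.2, 14.8 and 13.5 FPKM in r1r2V and 14.3, 12.7 and 13.1 FPKM in V (log2 fold change 0.01, interval -0.20 to 0.21). The groups overlapped in both genes.

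Gabra2, of the alpha-2 subunit and a gene whose mRNA level is known to differ among inbred mouse strains, varied most. It had 20.9, 48.2 and 16.03 FPKM in r1r2V replicates 1, 4 and 5, from 817, 1944 and 636 counts, and 13.9, 15.6 and 14.0 FPKM in V, from 566, 632 and 506 counts. Replicate 4 stood far above the others, while replicate 5 was just above the highest V library. The mean was 28.4 ± 17.4 FPKM in r1r2V and 14.5 ± 0.969 FPKM in V (SD, n = 3 each), with a log2 fold change of 0.98 (interval 0.24 to 1.71, adjusted p = 0.518 by edgeR's quasi-likelihood test). Without r1r2V replicate 4 the log2 fold change was 0.35 (adjusted p = 0.458), and in the alternatives the adjusted p lay between 0.13 and 1. The share of Gabra2 in the summed subunit FPKM was 8.76, 17.2 and 7.06% in r1r2V and 5.85, 6.49 and 6.56% in V.

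In r1r2V replicate 4 the subunit genes near Gabra2 were also above every V library, but by far less than Gabra2. On chromosome 5 the genes Gabrg1, Gabra2, Gabra4 and Gabrb1 lie within 1399 kb, from 70751047 to 72149572 (GRCm38), with Gabra2 at 70958392 to 71095849 on the minus strand. Relative to the V mean of log2(CPM + 0.5), where CPM is the count scaled to library size, replicate 4 deviated by 1.74 for Gabra2, against 0.23 for Gabrg1, 0.15 for Gabra4 and 0.23 for Gabrb1. Subunit genes elsewhere were above every V library there too, with deviations of 0.28 for Gabra5 on chromosome 7 and 0.17 for Gabrb2 on chromosome 11. Gabra3, Gabrg3, Gabrd, Gabre and Gabrq were not. The small rise of the neighbours is thus not read as particular to the region near Gabra2. Gabra4 and Gabrb1 share 46 exonic bases on opposite strands, so a few reads there could belong to either. The summed FPKM of the 12 subunit genes was 238, 280 and 227 in r1r2V and 237, 241 and 214 in V, and without Gabra2 it was 217, 232 and 211 in r1r2V and 224, 225 and 200 in V.

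Gabra6, of the alpha-6 subunit typical of cerebellar granule cells, was nearly absent. It had 42, 1 and 0 counts in r1r2V and 0, 1 and 0 counts in V, so all but 2 of its counts came from r1r2V replicate 1, and it was not tested. A count of 0 allows up to 3 counts in that library, for counting error only.

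Of the beta subunits, which form the GABA site with alpha subunits, Gabrb2 had 26.4, 31.5 and 29.6 FPKM in r1r2V and 28.5, 29.7 and 27.2 FPKM in V (log2 fold change 0.05). Gabrb1 had 12.5, 12.01 and 9.86 FPKM in r1r2V and 10.25, 10.30 and 10.31 FPKM in V (log2 fold change 0.16, interval -0.06 to 0.38), with r1r2V replicates 1 and 4 above V and replicate 5 below it.

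Of the gamma subunits, which place receptors at synapses and shape the response to benzodiazepines, Gabrg1 had 36.6, 44.7 and 37.3 FPKM in r1r2V and 40.0, 43.3 and 32.7 FPKM in V (log2 fold change 0.04). Gabrg3 was low, at 1.6, 1.81 and 1.40 FPKM in r1r2V and 1.82, 1.73 and 1.37 FPKM in V. The groups overlapped throughout.

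The remaining subunits, delta, epsilon and theta, pointed in different directions without passing. Gabrd, of the delta subunit of receptors outside synapses, had 1.11, 0.76 and 0.84 FPKM in r1r2V, from 34, 24 and 26 counts, and 0.63, 0.57 and 0.85 FPKM in V, from 20, 18 and 24 counts. Its log2 fold change of 0.42 had an interval from -0.18 to 1.01, so differences within that interval, 0 among them, were not excluded at this depth and spread. Gabre, of the epsilon subunit, had 7.25, 6.4 and 4.94 FPKM in r1r2V and 7.92, 7.47 and 6.46 FPKM in V (log2 fold change -0.23, interval -0.53 to 0.07). Gabrq, of the theta subunit, had 29.9, 27.2 and 24.2 FPKM in r1r2V and 33.2, 29.4 and 27.0 FPKM in V (log2 fold change -0.14, interval -0.35 to 0.07). Gabre and Gabrq lie with Gabra3 within 586 kb of the X chromosome, and both were lowest in r1r2V replicate 5, whereas Gabra3 deviated there by 0.07 from the V mean of log2(CPM + 0.5).

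GABA-B receptors need both of their subunits, and the genes differed more from each other than between the groups. Gabbr1, whose product binds GABA, had the highest mean FPKM of the 28 genes in each group, with 186, 180 and 190 FPKM in r1r2V and 199, 190 and 187 FPKM in V (log2 fold change -0.04, interval -0.17 to 0.08). Gabbr2, whose product couples to G proteins, had 15.6, 12.1 and 15.3 FPKM in r1r2V and 16.2, 15.6 and 15.3 FPKM in V (log2 fold change -0.12, interval -0.33 to 0.08). The ratio of Gabbr1 to Gabbr2 FPKM was 11.9, 14.9 and 12.4 in r1r2V and 12.3, 12.2 and 12.2 in V, so r1r2V replicate 4 stood apart and the V libraries were nearly identical.

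In all 6 libraries the FPKM of the chloride exporter gene Slc12a5 was above that of the importer gene Slc12a2. Slc12a5, which encodes the neuronal chloride exporter KCC2, had 91.5, 69.4 and 85.9 FPKM in r1r2V and 78.8, 80.8 and 83.4 FPKM in V (log2 fold change 0.03, interval -0.17 to 0.23). Its highest and lowest values were both in r1r2V libraries, replicates 1 and 4. Slc12a2, which encodes the importer NKCC1, a protein of glia and vessels as well as of neurons, had 19.98, 21.1 and 19.8 FPKM in r1r2V and 16.9, 18.3 and 19.6 FPKM in V. Its groups did not overlap, but the lowest r1r2V library and the highest V library nearly touched (log2 fold change 0.16, standard error 0.0725, unadjusted p = 0.0545, adjusted p = 0.66 by edgeR's quasi-likelihood test).

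The ratio of Slc12a2 to Slc12a5 FPKM was 0.218, 0.304 and 0.230 in r1r2V and 0.214, 0.226 and 0.236 in V. Means were 0.251 ± 0.0464 in r1r2V and 0.225 ± 0.0106 in V (SD, n = 3 each), a log2 difference of 0.14 that did not pass (two-sided exact permutation p = 0.6). Without r1r2V replicate 4 the log2 difference was -0.01 (exact permutation p = 0.9), so its sign came from that library. Slc12a4, which encodes the widespread exporter KCC1, averaged 5.63 ± 0.546 FPKM in r1r2V and 6.33 ± 0.536 FPKM in V (SD, n = 3 each; log2 fold change -0.16). Slc12a7, which encodes KCC4, averaged 2.12 ± 0.301 FPKM in r1r2V and 2.39 ± 0.0781 FPKM in V (SD, n = 3 each; log2 fold change -0.17).

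Genes of the inhibitory postsynapse overlapped between the groups. Gphn, which encodes gephyrin, the scaffold that anchors GABA-A and glycine receptors, had 21.1, 22.6 and 22.5 FPKM in r1r2V and 21.6, 22.6 and 24.0 FPKM in V (log2 fold change -0.03). Nlgn2, which encodes neuroligin-2, an adhesion protein of inhibitory synapses, had 52.6, 45.8 and 45.8 FPKM in r1r2V and 49.5, 50.8 and 51.0 FPKM in V (log2 fold change -0.06). Gabarap, which encodes a receptor-associated protein that also takes part in autophagy, had 168, 181 and 197 FPKM in r1r2V and 191, 177 and 182 FPKM in V (log2 fold change -0.01). Their log2 intervals all lay between -0.21 and 0.16.

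**Figure D4:**
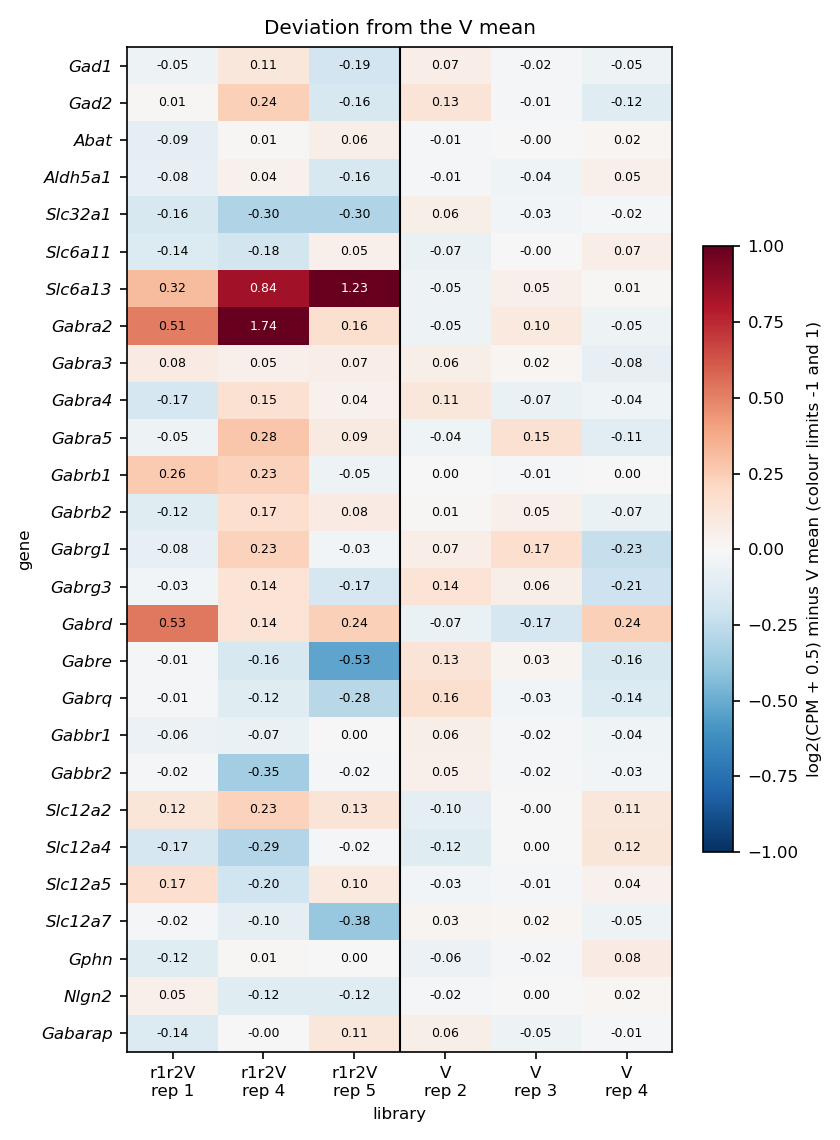
Deviation of each library from the V mean on the log2(CPM + 0.5) scale for the 27 tested genes, with r1r2V libraries left of the line and V libraries right of it; colours saturate at -1 and 1 and the numbers give the values. The strongest are Gabra2 in r1r2V replicate 4 (1.74) and Slc6a13 in r1r2V replicates 4 and 5 (0.84 and 1.23).

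The spread between libraries was mostly wider in r1r2V than in V. The SD of log2 CPM was larger in r1r2V for 20 of the 27 genes (74.1%) and for 71.8% of all genes tested, so the share is near the background. Of the 27 genes, r1r2V replicate 4 was highest of the 6 libraries in 8 and lowest in 6, and r1r2V replicate 5 was highest in 3 and lowest in 8, Gad1, Gad2, Gabre and Gabrq among them. V replicate 3 was highest in 0 and lowest in 1. Such counts were not taken over all genes tested, so they are not read as particular to the GABA genes. Replicate 5 also had the highest Slc17a6, of the vesicular glutamate transporter that marks glutamatergic neurons around the SCN, with 53.5, 60.7 and 82.3 FPKM in r1r2V and 59.4, 63.3 and 60.0 FPKM in V. It had the lowest Vip, of a peptide of the SCN core, with 35.4, 49.3 and 7.87 FPKM in r1r2V and 59.3, 36.9 and 35.9 FPKM in V. Avp, of a peptide of the SCN shell, was highest there, with 304, 353 and 725 FPKM in r1r2V and 465, 489 and 675 FPKM in V. The summed FPKM of 10 SCN neuron markers, Vip and Avp included, was also highest in replicate 5, at 431, 497 and 792 in r1r2V and 587, 589 and 769 in V. Avp made up most of that sum, and it was the only 1 of the 10 that was highest in replicate 5. Like Vip, the markers Grp, Prok2, Nms, Lhx1 and Vipr2 were lowest of the 6 libraries there, with 4.84, 1.29, 5.8, 0.98 and 2.31 FPKM. Six6, Rgs16 and Rora were neither highest nor lowest there. The ratio of Gad1 to Slc17a6 FPKM was 2.71, 2.62 and 1.57 in r1r2V and 2.62, 2.33 and 2.40 in V. The part of the punched area in these values was not tested.

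The listed transcript length, which moves with isoform use, gave a further readout. It was constant in all 9520 genes with a single listed transcript and varied between libraries in 5552 of 5940 with several. Of the 9 tested genes here with several transcripts, Gabra4 varied most, from 3692 to 3778 bases in r1r2V and from 3738 to 3777 bases in V, a spread of 2.29%. The other 8 varied by 0.575% or less. The groups did not overlap for Gad1 alone, with 3275.98 to 3278.87 bases in r1r2V and 3278.97 to 3281.54 bases in V, a spread of 0.17%. The ranges of Gad1 thus nearly touched. The share of genes without overlap among all those with several transcripts was not computed, so nothing particular to Gad1 is read from it. These are descriptions without a test.

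A wider list held 56 further GABA genes. Of the 53 tested, 0 rose and 0 fell over all genes by edgeR's quasi-likelihood test, against 0.416% of all genes tested. At an unadjusted p under 0.05 there were 4 of the 53, against 7.58% of all genes tested, so the share is near the background, and the median log2 fold change was 0.00. DESeq2 and limma-voom also called 0 of them. Among 16 genes of receptor trafficking and assembly, log2 fold changes ran from -0.15 for Lhfpl4 to 0.20 for Igsf9b, both of inhibitory synapses. Among 7 genes of GABA-B auxiliary subunits and potassium channels they ran from -0.41 for Kctd16, an auxiliary subunit, to 0.28 for Kcnj6, a channel that GABA-B receptors open. Among 14 chloride regulators and further anion transporters they ran from -0.20 for Slc4a3 to 0.15 for Slc4a10, both bicarbonate transporters. Among 15 genes of GABA precursors and uptake they ran from -0.22 for Best1, an anion channel, to 0.36 for Slc6a12, the betaine and GABA transporter BGT1, which had only 0.43, 0.18 and 1.27 FPKM in r1r2V and 0.54, 0.70 and 0.20 FPKM in V. Of the rho and pi subunits Gabrr2 alone was tested (-0.33). None of these passed.

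The 4 with an unadjusted p under 0.05 were named after their values were seen. Maob, of the astrocytic enzyme monoamine oxidase B, which can make GABA from putrescine, had 20.8, 24.15 and 22.7 FPKM in r1r2V and 19.8, 17.9 and 19.1 FPKM in V (log2 fold change 0.26, adjusted p = 0.474 by edgeR's quasi-likelihood test). Slc38a3, of a glutamine transporter of astrocytes, had 22.8, 23.3 and 25.5 FPKM in r1r2V and 27.1, 26.7 and 28.8 FPKM in V (log2 fold change -0.20). Hap1 and Lhfpl4, which act in receptor trafficking and synaptic clustering, both had log2 fold changes of -0.15. None of the 4 passed.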

How the data were processed

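The authors deposited, for each of 6 libraries, expected counts, FPKM values and an isoform-weighted transcript length per gene, per the file headers. The submitters' processing notes name the mm10 build, RSEM 1.2.12 and Bowtie2 2.2.5, besides DESeq2, HISAT2 2.0.4, Cufflinks 2.2.1, StringTie 1.0.4 and GATK. What each did, and strand use, was not given in the sources used here. Total expected counts were 17040698 to 17566335 in r1r2V and 15729603 to 17780928 in V. A gene missing from a library's table was taken as 0.

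Expected counts were rounded, filtered with filterByExpr (minimum count 10) and scaled by TMM, and r1r2V was tested against V with edgeR 4.0.16 (quasi-likelihood) in R 4.3.3 over all 14438 genes left, with Benjamini-Hochberg adjustment and a threshold of 0.05; the fit was also tested on simulated data. Ratios of FPKM values were compared by exact permutation of libraries. Alternatives were RLE scaling, other filters, DESeq2 1.42.0, limma-voom (limma 3.58.1), log2(FPKM + 1) and log2(FPKM + 0.1), and leaving out each library. The members and lists were chosen with earlier results of these data known. All 28 members are named, and of the wider lists up to 4 genes each by size of the fold change. Replicate libraries differed beyond sampling noise (chi-square per degree of freedom 3.85 to 5.58 in V and 11.7 to 13.5 in r1r2V), so each counted as 1 sample. Promoters and positions are RefSeq's for GRCm38.p6, and exon overlaps are from GENCODE.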

Additional observations from a re-analysis of the deposited data

How the results depend on the processing

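Over all genes, 43 were called higher and 17 lower in r1r2V; DESeq2 called 69 higher and 40 lower, and leaving out 1 library gave 19 to 52 higher and 7 to 24 lower. The lowest counts came without a V library: 20 higher and 7 lower without V replicate 2, 20 and 8 without replicate 3, and 19 and 7 without replicate 4. The count of GABA genes called higher was 0 to 1 on leaving out a library, the 1 being Slc6a13 without r1r2V replicate 1 (log2 fold change 1.15), and 0 were called lower in every alternative run. The log2 difference of the Slc12a2 to Slc12a5 ratio ran from -0.01 (without r1r2V replicate 4) to 0.23, and that of Gad1 to Gad2 from -0.10 to -0.04. Leaving out 1 library turned the sign of 10 genes with small differences, with log2 fold changes from -0.12 to 0.03 for Gad1, -0.07 to 0.12 for Gad2, -0.04 to 0.03 for Abat, -0.06 to 0.09 for Gabra4, -0.02 to 0.12 for Gabrb2, -0.07 to 0.12 for Gabrg1, -0.15 to 0.05 for Gabrg3, -0.04 to 0.13 for Slc12a5, -0.07 to 0.01 for Gphn and -0.07 to 0.06 for Gabarap. The cause was not tested. No paired analysis was possible because replicate 4 is the single number found in both groups. Depth limits Gabrd, with 18 to 34 counts per library, and Gabra6.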

Other observations

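Because Gabra6 counts came almost only from r1r2V replicate 1, 12 genes of cerebellar granule cells and neighbouring cerebellar types were looked up after that value was seen. Their summed FPKM was 123, 103 and 139 in r1r2V and 114, 134 and 134 in V, and 7 of the 12 were highest in r1r2V replicate 1. Cbln1, Barhl1, Etv1, Pax6 and Car8 were not, and Car8 was lowest of all libraries there, at 2.96 FPKM. The share of all genes tested that were highest in that library was not computed, so the count is not read as particular to these genes. Cbln3, a secreted protein of granule cells, had 62, 5 and 8 counts in r1r2V and 10, 7 and 11 counts in V. Barhl1 and Pcp2 were at 0 in some library. The part of other tissue in the Gabra6 counts was not tested.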
